A study of Mus musculus with 8 samples.

Results

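The SLAM family receptor genes Slamf1, Cd48, Cd244a, Ly9 and Cd84, together with Cd34, Procr, Esam, Cd27 and Emcn, encode surface proteins by which blood stem cells and progenitors are sorted. They were found in the count table by gene symbol, and all 10 were present among 53700 genes. Polyadenylated RNA was measured in 8 pools of mouse bone marrow cells. Haematopoietic stem cells (HSC, CD48- CD150+) and multipotent progenitors (MPP, CD48+ CD150-) were sorted from the LSK gate, which holds marrow cells without lineage markers that carry Sca-1 and Kit. Each of the 4 donor genotypes gave 1 HSC library and 1 MPP library. The donors labelled N5 were Nfat5 fl/fl with Vav-Cre, in which the Vav promoter drives Cre in blood cells. Those labelled IFNAR were IFNAR1-deficient, with no Cre named, those labelled DKO were IFNAR1-deficient and Nfat5 fl/fl with Vav-Cre, and those labelled WT were Nfat5 +/+ with Vav-Cre. All groups shared one procedure: donor marrow of CD45.2 background was put into irradiated wild-type CD45.1 recipients, and donor-derived cells were sorted 13 weeks later from 5 mice per pool, with equal cell numbers per mouse. The sources used here give no ages, and host cells that survived irradiation were excluded only by the CD45.2 sort.

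SLAM receptors are cell-surface proteins of blood cells. Most of them bind a second copy of themselves on a neighbouring cell, whereas 2B4, the product of Cd244a, binds CD48. Several of them, though not CD48, have cytoplasmic tails that can recruit small adaptors of the SAP family. In mouse marrow, CD150, the product of Slamf1, marks long-term stem cells, and CD48 appears as cells leave that state. The remaining genes encode sialomucins (CD34 and endomucin), the protein C receptor EPCR (Procr), an immunoglobulin-family adhesion protein first described in endothelium (ESAM), and a receptor of the TNF receptor family (CD27).

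In RefSeq's mouse genome GRCm38.p6, the 5 SLAM members lie together on chromosome 1 in the order Cd244a, Ly9, Cd48, Slamf1 and Cd84, with Slamf7 between Ly9 and Cd48, and Slamf6 after Cd84. Cd34 lies elsewhere on chromosome 1, Procr on chromosome 2, Emcn on 3, Cd27 on 6 and Esam on 9. The 250 bases before the gene start were available for 8 members, all except Ly9 and Esam. Promoters of 5 of them are printed because their genes divided the cell types most sharply or, for Emcn, divided libraries of 1 cell type. Capitals mark letters of the motifs searched, on either strand.
Slamf1, chr1:171766882-171767131, plus strand: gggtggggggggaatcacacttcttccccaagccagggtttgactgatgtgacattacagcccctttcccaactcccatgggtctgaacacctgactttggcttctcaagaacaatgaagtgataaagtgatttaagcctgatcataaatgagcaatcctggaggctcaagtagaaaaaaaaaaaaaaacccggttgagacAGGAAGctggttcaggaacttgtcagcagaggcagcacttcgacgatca
Cd48, chr1:171681742-171681991, plus strand: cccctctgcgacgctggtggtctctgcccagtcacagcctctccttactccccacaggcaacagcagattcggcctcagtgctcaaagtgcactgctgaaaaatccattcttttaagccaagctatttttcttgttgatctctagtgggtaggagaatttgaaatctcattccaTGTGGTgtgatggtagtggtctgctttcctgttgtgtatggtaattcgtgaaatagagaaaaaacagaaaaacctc
Cd244a, chr1:171558943-171559192, plus strand: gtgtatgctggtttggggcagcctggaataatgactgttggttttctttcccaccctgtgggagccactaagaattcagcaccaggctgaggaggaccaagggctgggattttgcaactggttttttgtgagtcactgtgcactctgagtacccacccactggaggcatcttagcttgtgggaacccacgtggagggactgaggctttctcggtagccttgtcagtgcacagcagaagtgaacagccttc
Cd34, chr1:194938571-194938820, plus strand: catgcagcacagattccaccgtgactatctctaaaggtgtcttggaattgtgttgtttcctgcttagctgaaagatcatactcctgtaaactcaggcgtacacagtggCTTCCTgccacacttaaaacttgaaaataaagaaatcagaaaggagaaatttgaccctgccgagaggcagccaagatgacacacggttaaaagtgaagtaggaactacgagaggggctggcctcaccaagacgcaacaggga
Emcn, chr3:137340828-137341077, plus strand: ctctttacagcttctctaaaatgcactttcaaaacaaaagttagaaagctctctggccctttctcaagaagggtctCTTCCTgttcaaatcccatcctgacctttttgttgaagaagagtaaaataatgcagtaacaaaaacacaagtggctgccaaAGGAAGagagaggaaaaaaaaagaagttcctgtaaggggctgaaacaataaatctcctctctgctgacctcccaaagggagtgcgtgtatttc
The ETS letters AGGAAG occurred in the promoters of Slamf1, Cd34 and Emcn, in that of Emcn on both strands. Of 32851 mouse promoters of the same length, 29.5% held them. The RUNX letters TGTGGT occurred in Cd48 and Cd84, and in 14.05% of all promoters. The E-box CAGCTG occurred in Procr and in 13.0% of all promoters. The GATA letters AGATAA (9.99% of promoters), the NFAT core TGGAAA (18.6%) and the interferon element of 2 GAAA runs parted by 2 bases (2.98%) were in none of the 8 windows. The matches did not overlap one another. They are matches of letters and say nothing of binding.

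Total counts ran from 28871693 to 47205950 per library, and values are CPM, counts scaled to a common library total with TMM factors. A floor of 3 counts corresponded to between 0.0633 and 0.105 CPM. No group had a second library, so p-values measure only the spread between libraries that differ in genotype or cell type. The SD given for a cell type is taken over its 4 genotypes. Whether the HSC and MPP pools of a genotype came from the same mice is not stated. In bulk RNA, fewer cells with a transcript and less transcript per cell cannot be told apart. The targeted genes did not follow the labels, so genotypes below are those of the labels. Nfat5 had 22.7, 3.12, 35.5 and 33.2 CPM across the HSC libraries labelled N5, IFNAR, DKO and WT, and 7.69, 0.193, 11.5 and 5.59 CPM across the MPP libraries in the same order. Ifnar1 had 126, 113, 35.1 and 122 CPM in those HSC libraries, and 87.9, 43.8, 125 and 37.2 CPM in those MPP libraries. The sources do not name the deleted exons, and a count summed over the gene would include any exon left in place. An exchange of labels between libraries was not tested, and it would change which libraries count as deficient in every genotype comparison below.

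The transcripts of the sorted proteins followed the sort in all 4 genotypes, which checks the gate and is no finding. Slamf1 (ENSMUSG00000015316.12) had 67.2, 52.2, 89.97 and 88.7 CPM across the HSC libraries labelled N5, IFNAR, DKO and WT. Among the MPP libraries it had a single count, 0.0275 CPM in the one labelled IFNAR. The pooled ratio of HSC to MPP was 9819, with a 95% counting interval of 1762 to 387846. Cd48 (ENSMUSG00000015355.14) had 249 counts, or 6.36 CPM, in the HSC library labelled IFNAR and 0 in the HSC libraries labelled N5, DKO and WT. The MPP libraries held 271, 284, 237 and 202 CPM of it under N5, IFNAR, DKO and WT. The single HSC library with Cd48 transcripts thus lay 44.7-fold under its MPP partner. The edgeR adjusted p was 0.0709 for Slamf1 and 0.244 for Cd48, so the sorted genes themselves missed the threshold in this design.

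**Figure D1:**
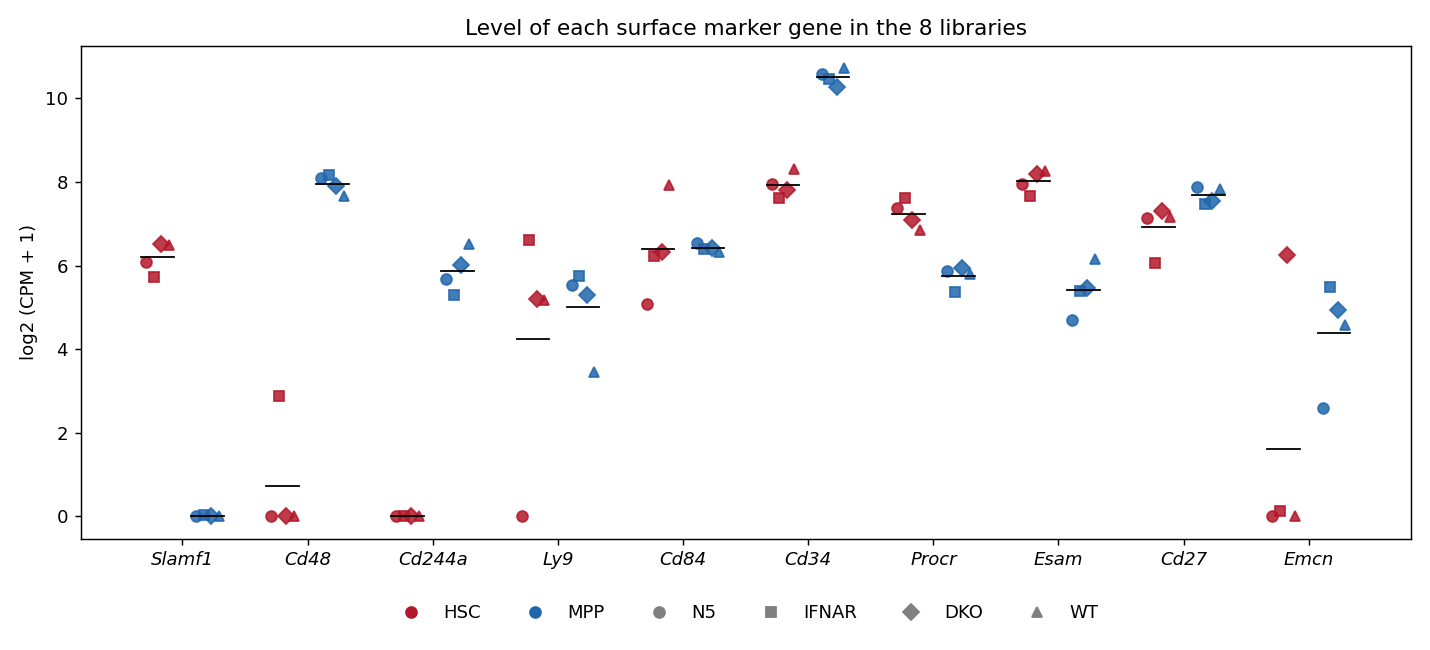
Level of each of the 10 genes on a log2 (CPM + 1) axis, with HSC in red left of MPP in blue. Marker shapes are the donor genotypes, and black lines are means of the log2 values over the 4 libraries. Slamf1, Procr and Esam were higher in all HSC libraries, Cd48, Cd244a, Cd34 and Cd27 were lower, and Ly9, Cd84 and Emcn overlapped.

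Taken within genotypes, Cd34 was the one member that passed the test between HSC and MPP. In edgeR's quasi-likelihood test with Benjamini-Hochberg adjustment at 0.05, 0.0165% of 12132 genes were called, and all 10 members were among the genes tested. The 2 cell types did not overlap for 7 members, of which 3 were higher in HSC (Slamf1, Procr and Esam) and 4 lower (Cd48, Cd244a, Cd34 and Cd27). Of all genes tested, 10.4% did not overlap, 4.73% higher and 5.65% lower in HSC. Slamf1 and Cd48 are among these 7 through the sort, and the others are established gate markers of the same cells. The median log2 fold change over the 10 members was -0.49, against -0.10 over all genes tested. The number of members called depended on the tool. DESeq2 called 8 (background 15.5%), limma-voom 4 (1.29%) and edgeR's bias-adjusted method 3 (0.882%). Without the genotype block edgeR called 5 (1.71%), with a filter of 10 CPM in 4 libraries 3 (0.251%), and it called none when any 1 of the 8 libraries was left out.

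**Figure D2:**
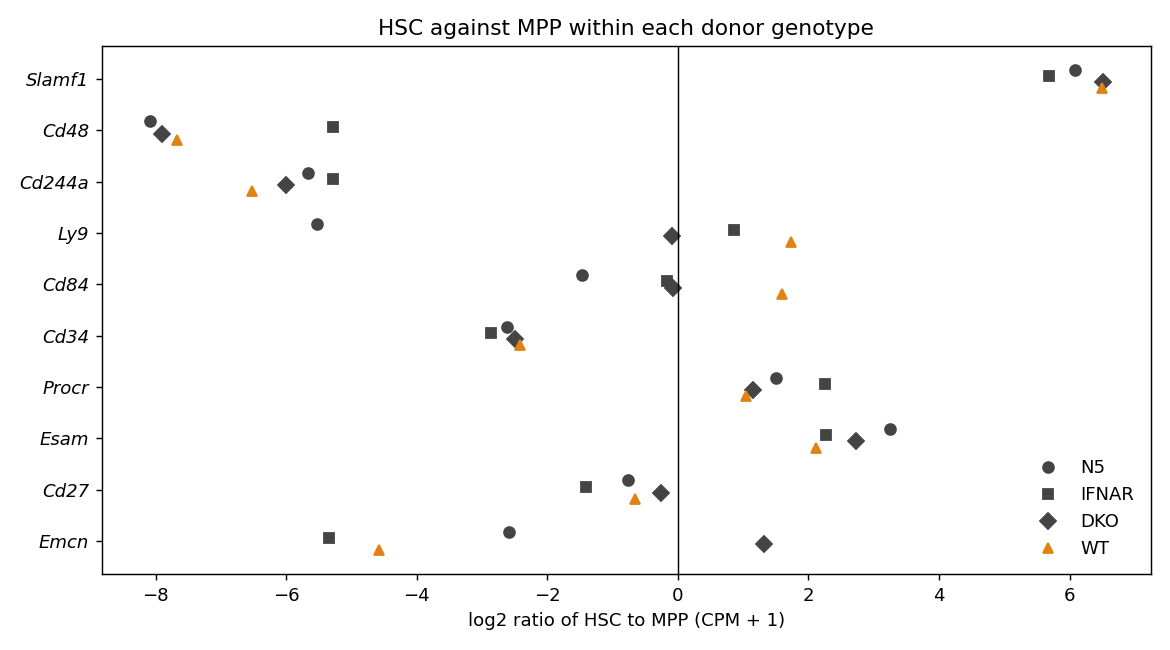
Log2 ratio of HSC to MPP within each donor genotype, with 1 added to each CPM, for the 10 genes. Each marker is 1 pair of libraries and positive values mean higher in HSC. The 4 pairs of Cd34 lay between -2.86 and -2.42, whereas those of Ly9 lay between -5.53 and 1.73.

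The 5 SLAM genes split into 3 patterns along their shared stretch of chromosome 1. Cd244a (ENSMUSG00000004709.15), which encodes the CD48 receptor 2B4, had 0 counts in all 4 HSC libraries. The MPP libraries labelled N5, IFNAR, DKO and WT held 49.9, 38.0, 63.1 and 90.5 CPM of it. Set against the mean floor of 3 counts, Cd244a was at least 743-fold lower in HSC, and its adjusted p was 0.279 with edgeR and 0.0176 with limma-voom. It was 1 of 13 genes (0.107% of those tested) with 0 counts in every HSC library and at least 10 CPM in every MPP library. Such genes passed the filter on low counts only through their MPP libraries, so this share is a description and no test. Transcripts of this receptor gene were thus undetected in the HSC libraries, where its ligand gene Cd48 was at 0 or 6.36 CPM. HSC were sorted as CD48-, so the low level of Cd48 there follows the gate. Both genes were at 38.0 CPM or more in every MPP library. Slamf1, between Cd48 and Cd84 in the genome, ran the opposite way.

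Ly9 and Cd84 lay at similar levels in both cell types, and differed more between HSC libraries than between HSC and MPP. Ly9 (ENSMUSG00000004707.15), the SLAM receptor CD229, had 0, 96.7, 35.7 and 35.4 CPM across the HSC libraries labelled N5, IFNAR, DKO and WT. Across the MPP libraries it had 45.2, 52.8, 38.0 and 9.99 CPM in the same order. It was absent from 1 HSC library and highest in another, and the ranges of HSC and MPP overlapped. Of 4458 genes with at least 30 CPM in the other 3 HSC libraries, 11 (0.247%) had 0 counts in the HSC library labelled N5. The same share ran from 0.247% to 0.79% over the 4 HSC libraries and from 0.0412% to 0.142% over the 4 MPP libraries. The mean of Ly9 was 42.0 ± 40.2 CPM in HSC and 36.5 ± 18.7 CPM in MPP (SD, n = 4 each), and the log2 fold change was -0.20 with an SE of 2.14 (edgeR adjusted p 0.995). The sign of that value was positive with limma-voom (0.42).

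Cd84 (ENSMUSG00000038147.15) had 32.8, 73.4, 79.7 and 244 CPM across the HSC libraries labelled N5, IFNAR, DKO and WT, a 7.44-fold range. Its MPP levels were 92.5, 82.5, 84.6 and 79.7 CPM, a 1.16-fold range. The coefficient of variation was 86.9% over the HSC libraries and 6.47% over the MPP libraries. For genes of 100 to 300 CPM in HSC the median coefficient was 27.4%, with quartiles of 19.0% and 38.3%. For genes of 50 to 100 CPM in MPP it was 29.9%, with quartiles of 20.6% and 41.7%. Cd84 thus varied more than most genes of its level in HSC and less than most in MPP. Its log2 fold change of -0.05 (SE 0.54, edgeR adjusted p 0.996) became 0.30 with limma-voom.

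The SLAM receptor genes outside the 10 members were sparse. Slamf6 had counts in the MPP libraries labelled IFNAR (1.1 CPM) and DKO (12.3 CPM) and in no HSC library. Slamf7 was seen at 12.5 CPM in the MPP library labelled IFNAR alone, and Slamf9 at 1.90 CPM in the MPP library labelled N5 alone. Slamf8 is described with the genotypes. The SAP family adaptors Sh2d1a, Sh2d1b1 and Sh2d1b2 had 0 counts in all 8 libraries. Of the listed phosphatases that can bind the same receptor tails, Ptpn6 and Inpp5d were abundant and Ptpn11 was not. Ptpn11 averaged 28.3 ± 20.7 CPM in HSC and 10.3 ± 11.6 CPM in MPP (SD, n = 4 each). Ptpn6 (SHP-1) averaged 386 ± 83.0 CPM in HSC and 423 ± 106 CPM in MPP, and Inpp5d (SHIP-1) averaged 223 ± 48.1 CPM in HSC and 251 ± 43.3 CPM in MPP (SD, n = 4 each). Of the 5 signalling genes tested, 2 were higher and 3 lower in HSC, and none was called. Between Slamf6 and Slamf8 on chromosome 1, 9 other genes were tested. Of these, 8 had log2 fold changes within 1 of 0, none was called, and the smallest adjusted p was 0.34 with edgeR.

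Procr and Esam, whose proteins enrich for stem cells when used beside CD150, were higher in all 4 HSC libraries. Procr (ENSMUSG00000027611.13) had 165, 194, 136 and 114 CPM across the HSC libraries labelled N5, IFNAR, DKO and WT. It had 57.3, 40.0, 60.6 and 54.6 CPM across the MPP libraries in that order. The lowest HSC library stood above the highest MPP library, and the means were 152 ± 34.6 CPM in HSC and 53.1 ± 9.11 CPM in MPP (SD, n = 4 each). The difference of 1.5 on the log2 scale (SE 0.28) had an edgeR adjusted p of 0.227. Esam (ENSMUSG00000001946.15) had 246, 202, 290.3 and 304 CPM in those HSC libraries and 25, 41.0, 42.9 and 69.8 CPM in those MPP libraries. The groups were far apart, at 260.5 ± 46.5 CPM in HSC and 44.7 ± 18.6 CPM in MPP (SD, n = 4 each). The log2 fold change of Esam was 2.62 (SE 0.26, edgeR adjusted p 0.0709), and limma-voom gave an adjusted p of 0.025. Megakaryocytes also carry ESAM, and of 7 megakaryocyte and platelet markers 4 passed the filter on low counts. Of these 4, Pf4 and Gp9 stood higher in every HSC library than in any MPP library, against 4.73% of all genes tested. Another marker, which did not pass the filter, also did so, but with 1 count (0.0255 CPM) in its lowest HSC library. The summed level of the 7 markers was 219 to 448 CPM in HSC and 45.6 to 164 CPM in MPP, with Gp6 at 0 in all 8 libraries. Itga2b, the most abundant of them, averaged 197 ± 62.5 CPM in HSC and 72.3 ± 55.9 CPM in MPP, with ranges that overlapped (SD, n = 4 each). The platelet factor gene Pf4 averaged 80.8 ± 34.9 CPM in HSC and 3.35 ± 2.08 CPM in MPP (SD, n = 4 each). Ppbp had counts in 1 HSC library (21.5 CPM under WT) and in 3 MPP libraries (at most 3.54 CPM), and its fitted log2 fold change was -5.93. The part of these markers in the levels of Esam was not tested.

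Genes linked to these proteins also differed in level, although the quasi-likelihood test used for the main results called none of them. The thrombin receptor gene F2r, through which EPCR-bound activated protein C signals, averaged 354 ± 83.7 CPM in HSC and 95.5 ± 20.4 CPM in MPP (SD, n = 4 each; edgeR adjusted p 0.0709). F2r was called by DESeq2 (adjusted p 2.05e-21), limma-voom (0.024) and edgeR's bias-adjusted method (0.0124). Its relative F2rl3 averaged 150.3 ± 44.5 CPM in HSC and 66.6 ± 15.5 CPM in MPP (SD, n = 4 each). Adam17, a protease that sheds EPCR from the surface, averaged 56.2 ± 20.9 CPM in HSC and 109 ± 34.5 CPM in MPP (SD, n = 4 each). Proc, the gene of protein C itself, had 0 counts in all 8 libraries. Among the junction proteins related to ESAM, all 4 genes tested had higher fitted levels in HSC. Jam2 had 70.2, 4.75, 27.6 and 34.8 CPM across the HSC libraries labelled N5, IFNAR, DKO and WT, against 0.364 CPM in the MPP library labelled WT and 0 in the other MPP libraries. Its adjusted p was 0.263 with edgeR, 0.0475 with limma-voom and 1.26e-10 with DESeq2. Jam3 had 33.2, 23.7, 28.4 and 10.2 CPM in those HSC libraries, against 1.71 CPM in the MPP library labelled IFNAR and 0 in the other MPP libraries. F11r (JAM-A) averaged 72.4 ± 19.7 CPM in HSC and 29.1 ± 18.7 CPM in MPP, and overlapped by 1 library (SD, n = 4 each).

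Cd34 (ENSMUSG00000016494.10), the sialomucin whose protein separates early progenitors from long-term stem cells in adult mouse marrow, fell in HSC. The HSC libraries labelled N5, IFNAR, DKO and WT held 247, 194, 221 and 314 CPM. The MPP libraries held 1530, 1419, 1241 and 1680 CPM in the same order. Within genotypes Cd34 was 6.19-, 7.31-, 5.62- and 5.36-fold lower in HSC under N5, IFNAR, DKO and WT. The log2 fold change was -2.60 (SE 0.12, edgeR adjusted p 0.0158). It stayed between -2.67 and -2.51 when any 1 library was left out, but the adjusted p then ran from 0.143 to 0.409, so the call rested on all 8 libraries. Selplg, a sialomucin ligand of selectins, averaged 199 ± 22.6 CPM in HSC and 368 ± 14.5 CPM in MPP (SD, n = 4 each). The sialomucin gene Cd164 averaged 216 ± 43.1 CPM in HSC and 272 ± 22.9 CPM in MPP (SD, n = 4 each), with ranges that overlapped.

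Cd27 (ENSMUSG00000030336.15) was detected in every library. It had 139, 66.0, 157 and 143 CPM across the HSC libraries labelled N5, IFNAR, DKO and WT, and 236, 177, 187 and 225 CPM in the MPP libraries. The HSC library labelled IFNAR was the lowest, and the highest HSC library stayed under the lowest MPP library. The log2 fold change of Cd27 was -0.77 (SE 0.23, edgeR adjusted p 0.366). Cd70, the gene of its only known ligand, had 0 counts in all 8 libraries. Siva1, whose product binds the CD27 tail, averaged 108 ± 22.7 CPM in HSC and 109.9 ± 39.9 CPM in MPP (SD, n = 4 each). Of the 7 genes of this pathway list that were tested, 5 were higher and 2 lower in HSC, and none was called.

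Emcn (ENSMUSG00000054690.18), the endomucin gene, was present in 1 HSC library and nearly absent from the others. The HSC library labelled DKO held 75.6 CPM, the one labelled IFNAR held 4 counts (0.102 CPM), and those labelled N5 and WT held 0. All MPP libraries had it, at 4.99, 43.6, 29.7 and 22.8 CPM under N5, IFNAR, DKO and WT. Of 4633 genes with at least 50 CPM in the HSC library labelled DKO, Emcn was the only one (0.0216%) at or under 0.2 CPM in the other 3 HSC libraries, a window set after its values were seen. The fitted log2 fold change between HSC and MPP was -8.32 (SE 3.37, edgeR adjusted p 0.508). It was -0.69 with the bias-adjusted method, and a fitted fold against libraries at 0 is no bound. Of 10 endothelial marker genes, Cdh5, Plvap, Ptprb, Lyve1 and Sox17 had 0 counts in all 8 libraries. The summed level of the list was 332 to 405 CPM in HSC and 133 to 262 CPM in MPP, mostly from Tie1 and Pecam1. Tie1 had 318, 269, 272 and 357 CPM across the HSC libraries labelled N5, IFNAR, DKO and WT, so its level under DKO lay within the range of the other HSC libraries. Flt4, a receptor of lymphatic endothelium, shared the pattern of Emcn among HSC libraries, with 10.4 CPM (491 counts) under DKO and 0 in the other 3, but in MPP it had 10.4 CPM under N5 and 0 in the others. Kdr, a receptor for vascular endothelial growth factor, had 20.7, 0, 0.0211 and 31.2 CPM across the HSC libraries in that order, and 23.6 CPM in the MPP library labelled IFNAR alone. Stab2 had 2.51 CPM in the HSC library labelled N5 alone. The part of endothelial transcripts in the level of Emcn was not tested.

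**Figure D3:**
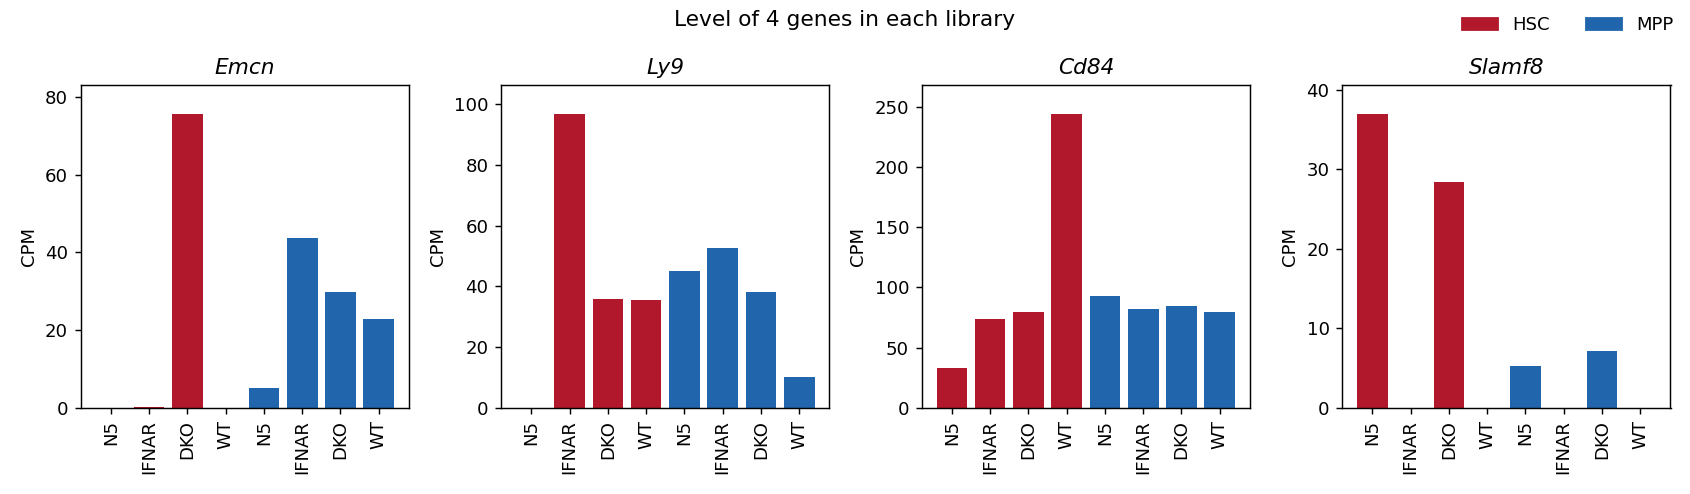
Bars give the CPM of Emcn, Ly9, Cd84 and Slamf8 in each library, with HSC in red and MPP in blue and each panel's axis starting at 0. Emcn reached 75.6 CPM in the HSC library labelled DKO alone among HSC libraries, Ly9 was at 0 in the one labelled N5, Cd84 reached 244 CPM in the one labelled WT, and Slamf8 appeared under N5 and DKO.

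Divided by exon length, the members ranked differently in the 2 cell types. In HSC, Esam averaged 90.9 CPM per kilobase of merged exons (70.3 to 106), Procr 74.9 (56.1 to 95.3), Cd27 54.1 (28.3 to 67.3) and Cd34 33.5 (26.6 to 43.0). Cd84 followed at 17.1 CPM per kilobase, Ly9 at 12.7, Slamf1 at 12.1, Emcn at 3.5 and Cd48 at 1.34. Neighbours in this HSC order overlapped in range, so their order was not resolved, and Cd244a was last at 0. In MPP, Cd48 led at 209 CPM per kilobase (170.2 to 239), and Cd34 was level with it at 201 (170.2 to 231). Cd27 came next at 88.6 (76.2 to 101), separated in range from Cd34 above it and from Procr below it at 26.2 (19.7 to 29.8). Esam at 15.6, Cd84 at 13.5, Cd244a at 12.4, Ly9 at 11.04 and Emcn at 4.67 CPM per kilobase each overlapped the gene before. Slamf1 was last in MPP at 0.00112.

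The LSK gate genes were present throughout. Kit had 1157, 1087, 1106 and 1148 CPM across the HSC libraries labelled N5, IFNAR, DKO and WT, and 1009.9, 879.8, 907 and 773 CPM in the MPP libraries. Ly6a, the gene of Sca-1, averaged 197 ± 85.4 CPM in HSC and 85.7 ± 47.7 CPM in MPP (SD, n = 4 each). Of 12 other genes whose proteins mark stem cells, 8 were higher and 4 lower in HSC, with a median log2 fold change of 1.31. Endoglin (Eng) averaged 662 ± 77.6 CPM in HSC and 254 ± 71.7 CPM in MPP (SD, n = 4 each). All 7 genes listed for proteins that mark progenitors had lower fitted levels in HSC, with a median of -5.80. That median is the fitted value of a gene with counts in only 2 HSC libraries, and a fitted fold against libraries at 0 is no bound. Over all 12132 genes tested, 5359 were higher and 6773 lower in HSC. Flt3, the cytokine receptor that rises as stem cells become multipotent progenitors, averaged 25.6 ± 21.8 CPM in HSC and 659 ± 75.3 CPM in MPP (SD, n = 4 each). The quasi-likelihood test used for the main results called none of the genes in these lists, whereas edgeR's bias-adjusted method called Eng (adjusted p 0.0392) and Flt3 (0.00767), and DESeq2 called Kit, Ly6a, Eng and Flt3.

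No member was called for Nfat5 loss. In edgeR 0.0% of 12132 genes were called for Nfat5-deficient against Nfat5-intact libraries (338 at an unadjusted p under 0.05), and DESeq2 called 1.37% of genes but no member. Limma-voom and the bias-adjusted method called 0.0%. None of the 10 members moved the same way in all 4 matched pairs, against 11.1% of all genes. Cd84 in HSC was 32.8 CPM under N5 and 244 CPM under WT, but 79.7 CPM under DKO and 73.4 CPM under IFNAR. In MPP it was 92.5 CPM under N5 and 79.7 CPM under WT, and 84.6 CPM under DKO and 82.5 CPM under IFNAR. The large gap was thus seen in 1 of the 4 pairs. Ly9 was 0 under N5 and 35.4 CPM under WT in HSC, and 45.2 CPM under N5 and 9.99 CPM under WT in MPP. The N5 and WT pair of Ly9 thus ran in opposite directions in the 2 cell types. Fitted log2 fold changes over the members ran from -1.81 for Cd48 to 2.21 for Emcn, and both rest on libraries at or near 0. The phosphatase gene Ptpn6, no member, was lower in all 4 Nfat5-deficient libraries than in their intact partners, as were 5.35% of genes. It had 283 CPM under N5 and 403 CPM under WT, and 373 CPM under DKO and 484 CPM under IFNAR, in HSC. Its MPP levels were 345 CPM under N5 and 449 CPM under WT, and 337 CPM under DKO and 562 CPM under IFNAR. DESeq2 called it (adjusted p 0.00142), whereas limma-voom (0.917) and edgeR did not. This comparison was picked after its values were seen.

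**Figure D4:**
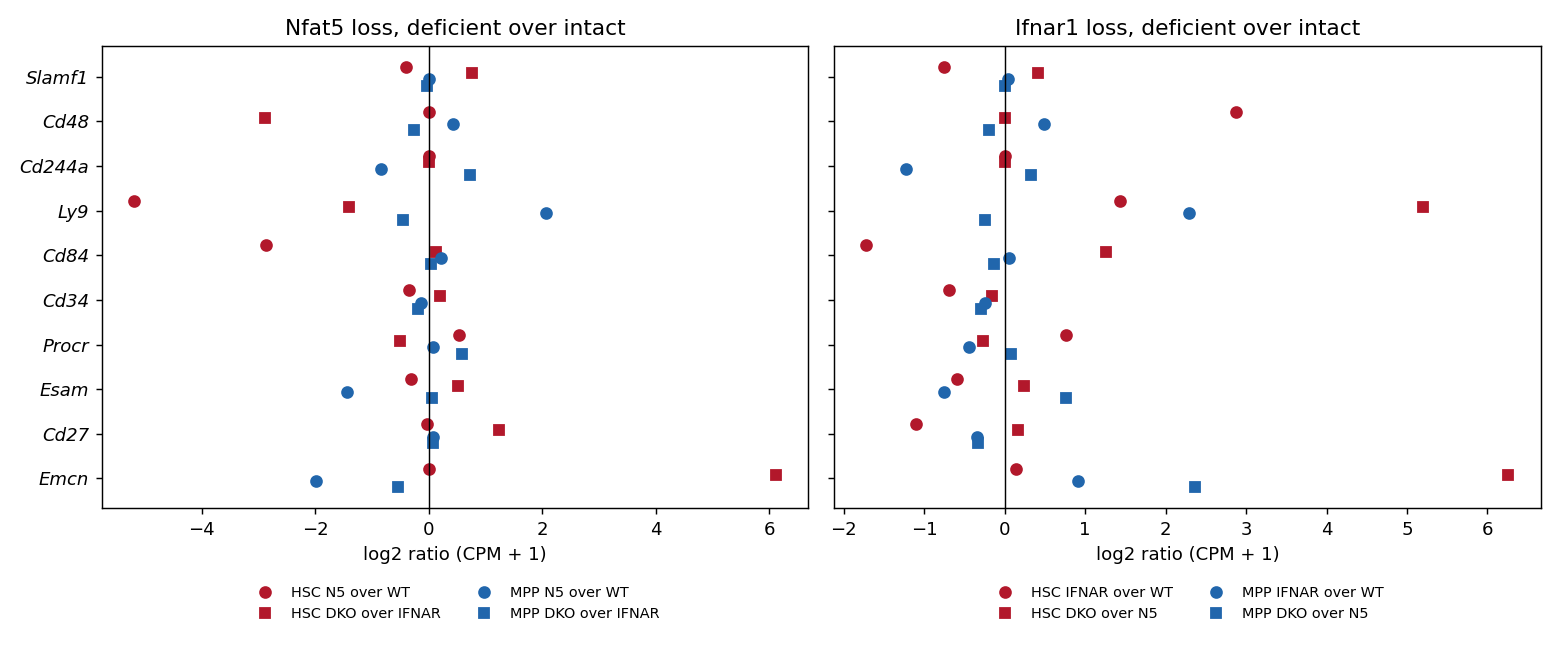
Log2 ratios of deficient to intact libraries, with 1 added to each CPM, for Nfat5 (left) and Ifnar1 (right) by the labels. Each marker is 1 matched pair, with HSC in red and MPP in blue. Under Ifnar1 loss the 4 pairs of Cd34 lay between -0.69 and -0.16, and those of Emcn between 0.14 and 6.26.

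For Ifnar1 loss edgeR also called 0.0% of genes (398 at an unadjusted p under 0.05), and limma-voom and the bias-adjusted method each called 0.00824%. DESeq2 called 1.92%, with no member among them. Cd34 was the one member with a lower level in all 4 Ifnar1-deficient libraries than in their intact partners, a pattern that 6.16% of all genes showed. It had 194 CPM under IFNAR and 314 CPM under WT, and 221 CPM under DKO and 247 CPM under N5, in HSC. In MPP it had 1419 CPM under IFNAR and 1680 CPM under WT, and 1241 CPM under DKO and 1530 CPM under N5. The log2 fold change of -0.35 (SE 0.11) had an adjusted p of 1.0 with edgeR, 0.751 with limma-voom and 0.0639 with DESeq2. Emcn was higher in all 4 Ifnar1-deficient libraries, as were 5.9% of genes, but in HSC IFNAR against WT that difference was 4 counts against 0. In MPP it had 43.6 CPM under IFNAR and 22.8 CPM under WT, and 29.7 CPM under DKO and 4.99 CPM under N5. Its adjusted p was 1.0 with edgeR and 0.0986 with DESeq2. The Sca-1 gene Ly6a had 137 CPM under IFNAR and 304 CPM under WT, and 120.3 CPM under DKO and 228 CPM under N5, in HSC. Its MPP levels were 45.2 CPM under IFNAR and 93.1 CPM under WT, and 54.5 CPM under DKO and 150.1 CPM under N5. It was lower in all 4 Ifnar1-deficient libraries, with a log2 fold change of -1.16. The adjusted p of Ly6a was 1.0 with edgeR, 0.567 with limma-voom and 0.000374 with DESeq2, which called it.

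Interactions were tested for the same 10 members. Between each gene loss and cell type, and between the 2 losses, edgeR and limma-voom called 0.0% of genes. DESeq2 called Emcn for Nfat5 loss by cell type (adjusted p 0.0251, background 4.82%) and for Ifnar1 loss by cell type (adjusted p 0.0211, background 5.0%), and no member for Nfat5 by Ifnar1 (background 3.24%). The adjusted p of Emcn with limma-voom was 0.805 for Nfat5 loss by cell type and 0.811 for Ifnar1 loss by cell type. In HSC, Emcn was at 75.6 CPM in the library labelled DKO and at most 0.102 CPM in the others. In MPP it ran from 4.99 to 43.6 CPM. The DKO library counts as deficient in both comparisons, so the 2 calls share it and are not separate results. No interaction was refitted without single libraries.

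Among the other SLAM receptors, Slamf8 (ENSMUSG00000053318.8), the BLAME receptor best known from myeloid cells, followed the Nfat5 label. It had 36.9 CPM under N5 and 28.4 CPM under DKO in HSC, and 5.20 CPM under N5 and 7.14 CPM under DKO in MPP. All 4 libraries labelled IFNAR or WT had 0 counts, and Nfat5 itself did not follow these labels. Against the mean floor of 3 counts this is at least 225-fold higher in the Nfat5-deficient libraries. Of the genes tested, 5 (0.0412%) had counts in all 4 Nfat5-deficient libraries and in no intact one. They were Slamf8, Ston2, Dock3, Dynlt2a2 and Gm16565, named after their values were seen, and 2 of them, Slamf8 and Ston2, had at least 5 CPM in each deficient library. A gene at 0 in all 4 intact libraries passed the filter on low counts only through the 4 deficient ones. The share and the p-values of Slamf8 thus describe a pattern picked from these data and are no test of it. Slamf8's unadjusted p was 0.00483 with edgeR and its adjusted p 1.0, against 0.133 with limma-voom and 1.69e-10 with DESeq2. Of 10 T and NK cell markers 5 were at 0 in all 8 libraries, and their sum ran from 0 to 26.1 CPM in HSC and 0 to 19.1 CPM in MPP. The 8 mature myeloid markers summed to 273 to 501 CPM in HSC and 149 to 576 CPM in MPP, and their part in Slamf8 was not tested.

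The genes whose levels most resembled each member across the 8 libraries were found by Pearson's r of log2 (CPM + 1), as a description of points that share cell type and library. The nearest to Slamf1 were the guanylate-binding protein gene Gbp8 (r = 0.991), Ndn and Ocln, each with 0 counts in all MPP libraries. Gbp8 had 19.3, 22.6, 64.4 and 50.8 CPM across the HSC libraries labelled N5, IFNAR, DKO and WT. Nearest to Cd48 were Tespa1 (r = 0.994), Lgals1 and Sstr2. Tespa1, which encodes a protein of T-cell receptor signalling, shared even the small value in the HSC library labelled IFNAR, at 6.59 CPM, with 0 in the other 3 HSC libraries. Cd244a was followed most closely by Slc16a11 (r = 0.999), Bex6 and the myeloid transcription factor gene Cebpe. For Cd34 these were Dntt (r = 0.99), Tyro3 and Bex6. Dntt, which encodes the DNA polymerase that adds bases at antigen receptor joints, had 621, 570.2, 198 and 655 CPM in the MPP libraries labelled N5, IFNAR, DKO and WT, and 1 count in the HSC libraries.

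For the stem-side genes, Procr was matched most closely by Tsc22d1 (r = 0.979), Bex4 and Ppp1r16b, and Esam by Ormdl3 (r = 0.986), Apoe and Tirap. Apoe, the apolipoprotein E gene, averaged 1238 CPM in HSC and 110.5 CPM in MPP. Cd27 was matched by Rrm2 (r = 0.986), Eif4a1 and Mnd1. Rrm2, a subunit of ribonucleotide reductase that is high in dividing cells, had 154, 56.3, 151 and 133 CPM across the HSC libraries labelled N5, IFNAR, DKO and WT, so it too was lowest under IFNAR. The uneven genes had partners of their own. Emcn was followed by Zdhhc15 (r = 0.992), Rgs10 and Ppm1m. Zdhhc15, a palmitoyltransferase gene, had 35.1 CPM in the HSC library labelled DKO and 0, 0 and 0.029 CPM in those labelled N5, IFNAR and WT. Ly9 was nearest to Hsd17b12 (r = 0.969), Pdlim2 and Snhg5, and Cd84 to Cul7 (r = 0.941), Arsk and Cdkn3. Cul7 had 0.196, 22.3 and 10.05 CPM across the HSC libraries labelled N5, IFNAR and DKO, and 86.7 CPM in the one labelled WT.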

How the data were processed

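Libraries were made from polyadenylated RNA with Smart-Seq2, which marks neither strand nor molecules, so genes that overlap and paralogs may share reads. Per the submitters' processing notes, STAR 2.7.8a and RSEM 1.3.0 were used on GRCm39. The authors deposited whole-number counts for 53700 genes without normalization, and the annotation release is not given in the sources used here. Promoters, exon lengths and gene order came from RefSeq and GENCODE tables of GRCm38, an earlier build, and no coordinates were converted. Counts were tested with edgeR 4.0.16 in R 4.3.3 (glmQLFTest, the installed older quasi-likelihood method, TMM, filterByExpr by cell type, which kept 12132 genes and 99.46% of counts), with Benjamini-Hochberg adjustment at 0.05 over all genes. The contrast of HSC with MPP held genotype as a block, which left 3 residual degrees of freedom. For each gene loss, cell type and the other loss were terms, which left 4 and compares 4 matched pairs of libraries. Its error comes from terms left out. Alternatives were DESeq2 1.42.0, limma-voom 3.58.1, edgeR's bias-adjusted method, RLE scaling, other filters, no block, subsets, summed cell types and leaving out each library. The scripts were tested on simulated data, and had to pass at a dispersion (spread beyond counting error) of 0.05. The common dispersion fitted to these data ran from 1.05 to 1.14, so that pass mark does not cover their noise. The members and lists were chosen with earlier results of these data known. All members are named, with at most the 3 most abundant genes of each related list, the gate genes Ly6a and Kit, and the 3 nearest patterns per member, leaving out predicted genes, pseudogenes and antigen receptor segments. Some genes that this rule takes are not reported here. Genes shown for being at 0 (Slamf7, Slamf9, the SAP adaptors, Proc, Cd70, Cdh5 and the other endothelial markers), Flt4, Stab2, the 5 genes of the Nfat5 on and off pattern, Gp6, Ppbp and Ptpn11 were named after their values were seen. Intervals and floors cover counting error only.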

Additional observations from a re-analysis of the deposited data

Results flagged for a closer look

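Of 18 sets of 4 libraries examined (each member in each cell type, where at least 1 library had more than 3 counts), 2 had 1 library far from the other 3. For normally distributed values the cutoff flags about 1 in 20 such sets. A set with 3 libraries at or near 0 and 1 above them is flagged whatever that 1 value is, so the rate does not hold for these 2. How often all genes show this was not examined. Cd244a in HSC, at 0 throughout, and Slamf1 in MPP, with 1 count in 1 library, were not examined. Cd48 had 6.36 CPM in the HSC library labelled IFNAR and 0 in the other HSC libraries. Emcn had 75.6 CPM in the HSC library labelled DKO, against at most 0.102 CPM in the other HSC libraries.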

How the results depend on the processing

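The HSC and MPP libraries were paired by genotype, as a block in the fit, and without that block edgeR called 5 members. DESeq2 called 8, limma-voom 4, the bias-adjusted method 3 and the 10 CPM filter 3, and leaving out 1 library gave 0 to 0. DESeq2 called 1 member for Nfat5 loss by cell type and 1 for Ifnar1 loss by cell type, where edgeR called 0. No alternative called a member for Nfat5 loss or Ifnar1 loss. Between HSC and MPP, 8 members kept their sign in all alternatives. The others changed sign with limma-voom, the bias-adjusted method and no block: Ly9 to 0.42, 0.14 and 0.20, and Cd84 to 0.30, 0.13 and 0.34. Leaving out 1 library gave Cd84 -0.58 to 0.44 and Ly9 -1.22 to 0.87. For Nfat5 loss, signs turned for Slamf1 (0.28 with limma-voom, 0.21 bias-adjusted, 0.24 summed), Esam (0.05 with limma-voom, 0.31 with Ifnar1 lost, 0.04 summed) and Emcn (-0.40 with limma-voom, -1.72 with Ifnar1 intact, -0.36 summed). They also turned for Cd48 (0.43 with Ifnar1 intact) and, with Ifnar1 lost, for Cd244a (0.65), Cd84 (0.09) and Cd34 (0.01). Leaving out 1 library gave Cd244a -0.67 to 0.52, Cd48 -4.77 to 0.09, Emcn -1.60 to 6.74, Esam -0.54 to 0.04, Ly9 -2.51 to 0.06 and Slamf1 -0.95 to 0.19. For Ifnar1 loss, Slamf1 turned to -0.01 with DESeq2, -0.21 with limma-voom, -0.15 bias-adjusted and -0.12 summed. With Nfat5 lost, Cd48 turned to -0.19, Cd244a to 0.30, Cd84 to 0.57, Procr to -0.10 and Esam to 0.51. Leaving out 1 library gave Cd244a -0.94 to 0.22, Cd84 -0.71 to 0.43, Esam -0.41 to 0.18, Procr -0.20 to 0.19 and Slamf1 -0.17 to 0.95. The cause of these changes was not tested. RLE or total-count scaling moved single levels by at most 2.75%.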
